A study of Homo sapiens with 12 samples.

Results

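The serpins are a family of protease inhibitors and of related proteins that have lost inhibitory activity. The family was taken as every probe set whose single annotated gene symbol is SERPIN followed by a clade letter from A to I and a number. This gave 48 of the 54613 probe sets tested and 30 of the 19775 genes that have a probe set with 1 symbol. Human hepatocellular carcinoma cells of the line HEP3B, labelled sensitive to DAAD-2, were treated with 2 µM DAAD-2 for 72 h, and cells of the line SNU-449, labelled resistant, with 20 µM DAAD-2 for 72 h. DAAD-2 is a dehydroabietylamine coupled to N-acetyl-L-cysteine. The controls of both lines were given its vehicle, 0.1% DMSO, for the same 72 h. Total RNA was hybridised to Affymetrix Human Genome U133 Plus 2.0 arrays, 3 arrays in each of the 4 groups, and the comparisons ask how the transcripts of each line differ after DAAD-2. Each line is a single model and was treated at its own dose, so line and dose cannot be told apart in any difference between the responses. The labels speak of triplicates and do not say if these were cultured apart. P-values here therefore reflect how far the 3 arrays of a group differ, which may be technical variation.

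An inhibitory serpin offers an exposed reactive centre loop to its protease as bait. When the protease cuts the loop, the serpin snaps into a more stable fold and carries the covalently trapped enzyme with it, so each molecule works only once. Hepatocytes secrete most of the plasma serpins, which restrain coagulation, fibrinolysis, complement and the proteases of neutrophils, while clade B serpins stay mainly inside cells.

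Values are log2 levels. A probe set was called higher or lower at a Benjamini-Hochberg adjusted p under 0.05 from limma over all probe sets, and each gene was represented by its brightest probe set on average. The array medians lay between 3.71 and 3.85. RNA came from whole cultures, so fewer cells with a transcript and less of it per cell cannot be told apart. Of 9 hepatocyte markers measured, 8 were higher in HEP3B than in SNU-449 under DMSO, and the fibrinogen beta chain (FGB) was lower, with a log2 fold change of -4.05. Of 10 mesenchymal genes 7 were lower in HEP3B and 1, FN1, was higher. Of 4 leukocyte genes PTPRC was below the array median on all 12 arrays and CD3E on 0, while CD14 and LYZ were higher in HEP3B than in SNU-449, with log2 fold changes of 2.05 and 9.08. Of 3 endothelial genes CDH5 was below the median on all 12 arrays, VWF on 5 and PECAM1 on 0, and 0 were called between the lines by limma, with 0 at an unadjusted p under 0.05. The ratio of the 3′ to the 5′ probe set of GAPDH, a sign of RNA degradation, was 1.99 in log2 units on DAAD-2 replicate 2 of SNU-449 and 0.34 to 0.97 on the other arrays of that line. On the HEP3B arrays it was 0.45 to 1.51. No pair of arrays was identical.

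Under DMSO the lines carried largely different serpins. HEP3B expressed several plasma serpins of the liver, with SERPINA1, SERPINA5, SERPINF1 and SERPIND1 more than 6 log2 units above SNU-449. SNU-449 expressed SERPINE2, a serpin of the cell surface and matrix. Not all liver serpins differed, and SERPINC1 was near or below the array medians in both lines. Of the 48 serpin probe sets 20 were called, 18 of them higher in HEP3B and 2 lower. Over all probe sets 29.3% were called, 14.5% higher and 14.8% lower. Every HEP3B array was above every SNU-449 array in 21 of the 48 and below in 3, against 20.2% and 21.4% of all probe sets. By gene, 15 of 30 serpins were higher in HEP3B and 1 lower, against 21.4% and 19.4% of all genes, with a median log2 fold change of 0.43 over the 30, against -0.01 over all genes. On the plot of levels by array the panel of SERPINE2 is the one in which both HEP3B groups lie below both SNU-449 groups.

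**Figure D1:**
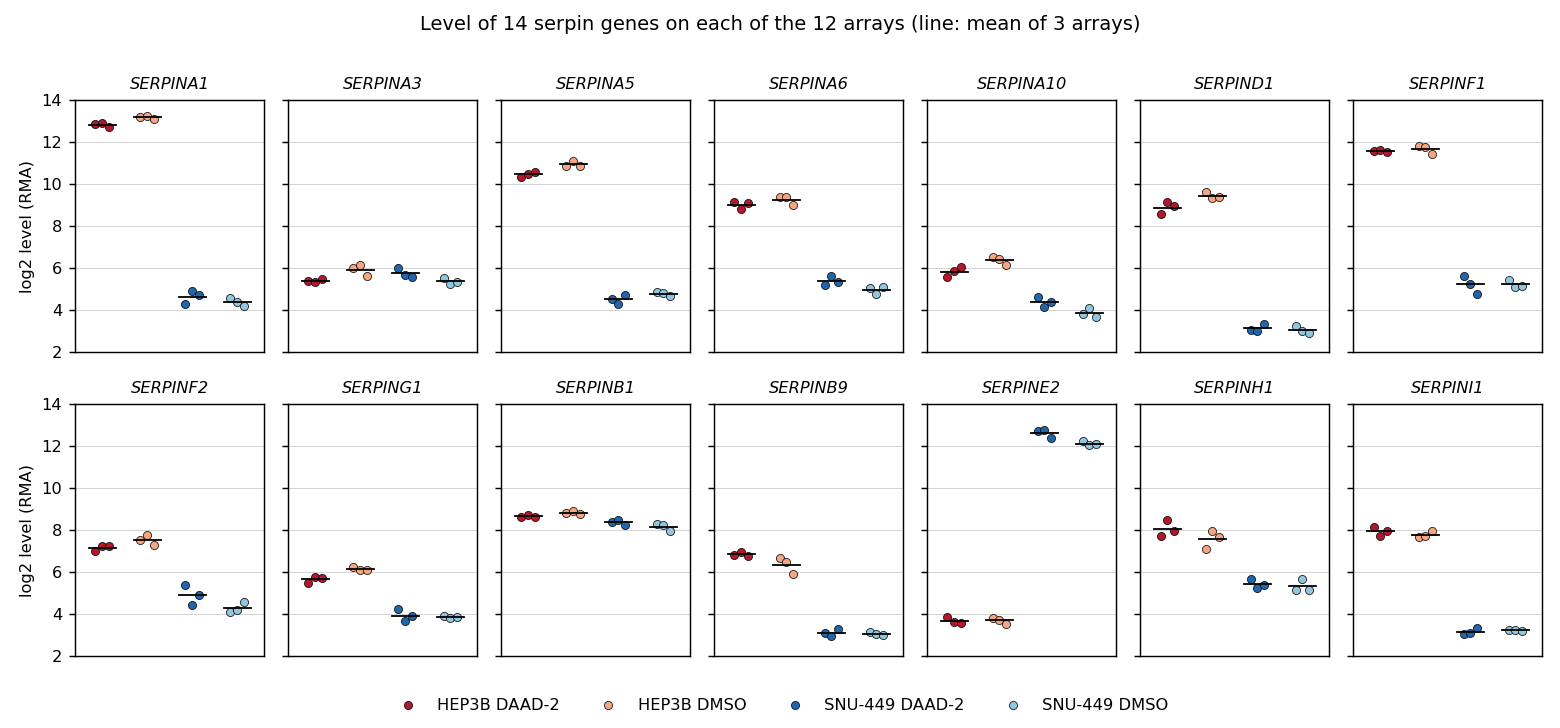
Log2 level (vertical axis) of the 14 serpin genes described singly, 1 panel per gene and 1 point per array, with a line at the mean of the 3 arrays of a group. Groups run from HEP3B with DAAD-2 and with DMSO to SNU-449 with DAAD-2 and with DMSO. SERPINA1 lies between 12.73 and 13.23 in HEP3B and between 4.23 and 4.94 in SNU-449, and SERPINE2 shows the opposite order.

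Among the inhibitors that act on blood proteases, SERPINA1 is alpha-1-antitrypsin, the main plasma inhibitor of neutrophil elastase. It was at 13.21, 13.23 and 13.13 in HEP3B under DMSO, against 4.59, 4.41 and 4.23 in SNU-449 under DMSO, a log2 fold change of 8.78 (SE 0.11, limma adjusted p = 6.0e-10). SERPINA5, the protein C inhibitor, was at 10.89, 11.09 and 10.88 in HEP3B, against 4.86, 4.82 and 4.70 in SNU-449 (log2 fold change 6.16, SE 0.10, limma adjusted p = 1.7e-09). SERPIND1 is heparin cofactor II, an inhibitor of thrombin. It was at 9.65, 9.33 and 9.41 in HEP3B, against 3.26, 3.00 and 2.92 in SNU-449, where all arrays were below their median (log2 fold change 6.40, SE 0.13, limma adjusted p = 4.2e-09). In SNU-449 the levels of these 3 genes were near or below the array medians, where array values are compressed, so the sizes of the differences are less certain than their direction. SERPINF2, alpha-2-antiplasmin, which inactivates plasmin, was at 7.54, 7.77 and 7.29 in HEP3B, against 4.13, 4.19 and 4.61 in SNU-449 (log2 fold change 3.22, SE 0.16, limma adjusted p = 8.7e-07). SERPINA10, the protein Z-dependent inhibitor of coagulation factor X, was at 6.55, 6.47 and 6.15 in HEP3B, against 3.85, 4.10 and 3.69 in SNU-449 (log2 fold change 2.51, SE 0.14, limma adjusted p = 1.9e-06). SERPING1 is the C1 inhibitor, which controls the first proteases of complement and of the contact system. Its values were 6.27, 6.10 and 6.10 in HEP3B, against 3.94, 3.84 and 3.88 in SNU-449 (log2 fold change 2.27, SE 0.10, limma adjusted p = 2.5e-07). In each of these 6 genes every HEP3B array lay above every SNU-449 array, but they are described singly because their mean reached 6, which it did in HEP3B alone. SERPINA3, alpha-1-antichymotrypsin, an acute phase inhibitor of cathepsin G, stood apart by the small size of its difference. Its values were 6.01, 6.17 and 5.65 in HEP3B, against 5.53, 5.26 and 5.37 in SNU-449 (log2 fold change 0.56, SE 0.15, limma adjusted p = 0.0196). That call ended without HEP3B replicate 1 (adjusted p = 0.0681 from limma) or 2 (0.0596) and without SNU-449 replicate 2 (0.0739) or 3 (0.0617), all under DMSO.

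The plasma serpins that do not inhibit proteases, SERPINF1, SERPINA6 and SERPINA7, followed the same order. The inhibitors SERPINA4 and SERPINC1 are given after them. SERPINF1, the pigment epithelium-derived factor, a secreted inhibitor of vessel growth, was at 11.81, 11.80 and 11.46 in HEP3B, against 5.43, 5.13 and 5.18 in SNU-449 (log2 fold change 6.45, SE 0.13, limma adjusted p = 4.5e-09). SERPINA6, the corticosteroid-binding globulin, was at 9.40, 9.42 and 9.0 in HEP3B, against 5.08, 4.76 and 5.10 in SNU-449 (log2 fold change 4.29, SE 0.15, limma adjusted p = 7.5e-08). SERPINA7, the thyroxine-binding globulin, had a log2 fold change of 0.67 (limma adjusted p = 0.0300) at group means of 4.06 in HEP3B and 3.39 in SNU-449. SERPINA4, kallistatin, an inhibitor of tissue kallikrein, had a log2 fold change of 1.25 (limma adjusted p = 9.4e-04) at means of 5.51 in HEP3B and 4.26 in SNU-449. Antithrombin (SERPINC1), another liver serpin, was between 3.18 and 4.04 in HEP3B under DMSO and between 3.31 and 3.39 in SNU-449 under DMSO on its brighter probe set, and neither of its 2 probe sets was called.

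Outside the plasma group, SERPINE2, protease nexin-1, which inhibits thrombin and urokinase at the cell surface, was at 3.84, 3.73 and 3.56 in HEP3B, against 12.23, 12.04 and 12.11 in SNU-449 (log2 fold change -8.42, SE 0.11, limma adjusted p = 6.0e-10). Its other probe set was below the array median on all 12 arrays and had a log2 fold change of -0.08 (SE 0.10, limma adjusted p = 0.610), so the difference rests on 1 probe set. SERPINI1, neuroserpin, an inhibitor of tissue plasminogen activator best known from neurons, was at 7.66, 7.73 and 7.95 in HEP3B, against 3.25, 3.24 and 3.22 in SNU-449 (log2 fold change 4.55, SE 0.11, limma adjusted p = 7.6e-09). SERPINH1 is HSP47, a collagen chaperone of the endoplasmic reticulum. It was at 7.13, 7.98 and 7.68 in HEP3B, against 5.14, 5.67 and 5.18 in SNU-449 (log2 fold change 2.27, SE 0.22, limma adjusted p = 5.8e-05). The intracellular SERPINB9, the inhibitor of granzyme B, was at 6.67, 6.47 and 5.93 in HEP3B, against 3.18, 3.05 and 3.03 in SNU-449 (log2 fold change 3.27, SE 0.18, limma adjusted p = 1.3e-06). SERPINB1, the leukocyte elastase inhibitor, differed less between the lines than SERPINB9, at 8.84, 8.92 and 8.76 in HEP3B, against 8.30, 8.23 and 7.99 in SNU-449 (log2 fold change 0.66, SE 0.11, limma adjusted p = 0.00171). The probe sets of these 2 genes were not alike: 2 dim ones of SERPINB9 and 2 of the 4 of SERPINB1 were not called, with log2 fold changes between -0.19 and 0.34. Like the inhibitors above, SERPINF1, SERPINA6, SERPINI1, SERPINH1 and SERPINB9 are described singly because of a mean of 6 reached in HEP3B alone. SERPINE2 is described singly because of a mean reached in SNU-449 alone.

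The position of the genes gave another view of the same comparison. Of the 10 clade A serpins measured, 9 form a row on chromosome 14, and SERPINA7 lies on chromosome X. The RefSeq order in the row is SERPINA10, SERPINA6, SERPINA2, SERPINA1, SERPINA9, SERPINA12, SERPINA4, SERPINA5 and SERPINA3. Of these 9 genes 6 were higher in HEP3B, and 3 inside the row were not called. SERPINA2 (0.14), SERPINA9 (-0.40) and SERPINA12 (0.31) had small log2 fold changes, although SERPINA1, with 8.78, stands between the first and the second of them. SERPINA2 was below the array median on all 12 arrays and SERPINA12 on 11. A low level cannot be told from none there, so their small differences say little about the lines. On chromosome 18, 9 clade B serpins form another row. By the probe set that stood for each gene, 0 of the 9 were called by limma, against 8061 of all 19775 genes. Of the 9, 0 had an unadjusted p under 0.05, against 37.1% of all probe sets and 9627 of all 19775 genes. Of the 17 probe sets of these 9 genes, 15 were below the array median on all 12 arrays. The lack of calls in those therefore says little about the lines. SERPINB8, by its brighter probe set, was above the median on all 12 arrays. The paired neighbours SERPINF2 and SERPINF1 on chromosome 17 were both higher in HEP3B, as were SERPINB1 and SERPINB9 on chromosome 6.

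**Figure D2:**
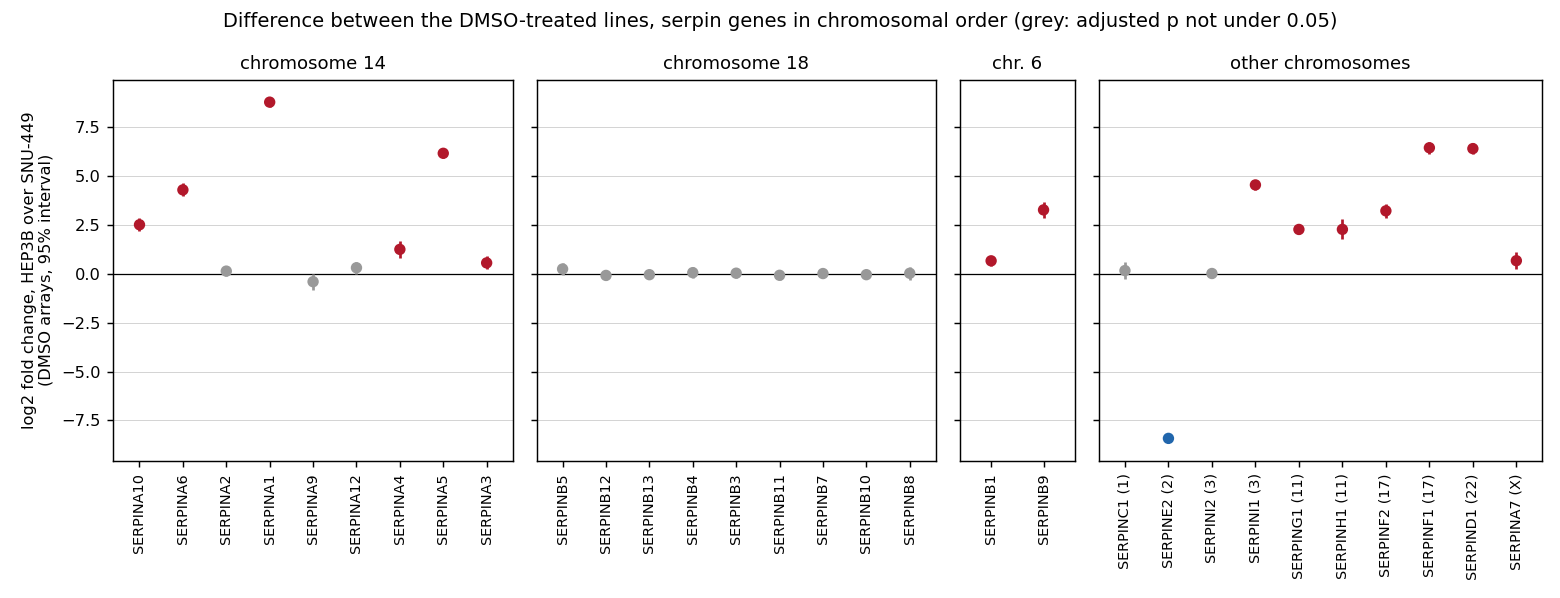
Log2 fold change of HEP3B over SNU-449 under DMSO (vertical axis, with the 95% interval) for the 30 serpin genes in chromosomal order. Points in red and blue are called higher and lower in HEP3B, grey points are not called. On chromosome 14, 6 of 9 genes are called, on chromosome 18, 0 of 9.

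The letters before the start of these genes were looked at because several clade A serpins of the liver were higher together in HEP3B. HNF1 factors drive many liver genes and read the core letters GTTAAT, which was searched on both strands in the 250 bases before each start of the RefSeq promoter table (GRCh38.p14). It was present in 6.23% of all 35116 windows and in 7 of the 33 windows of serpin genes, some of which have several. Of the 9 clade A genes with a window 5 had it, SERPINA1, SERPINA10, SERPINA4, SERPINA6 and SERPINA7, and of all 23 serpin genes with a window 7 had it. The other 2 were SERPINB12 and SERPINI2, both below the array median on all 12 arrays. SERPINA5, SERPIND1 and SERPINF1, also higher in HEP3B, were not among the 7, though not every serpin gene had a window. The 6.23% counts windows, so it is no background for counts of genes. A match describes the letters and not a bound site. Shown are 3 liver serpins with these letters, in capitals on either strand, and SERPINA3, which has none in this window. SERPINA10 and SERPINA3 are the genes whose responses to DAAD-2 differed between the lines, and SERPINA1 and SERPINA6 belong to the same row of genes on chromosome 14. They are SERPINA10 at chr14:94293269-94293518, minus strand, SERPINA1 at chr14:94388603-94388852, minus strand, SERPINA6 at chr14:94323337-94323586, minus strand, and SERPINA3 at chr14:94612141-94612390, plus strand. For SERPINA10 and SERPINA1 the window shown is 1 of 2.
SERPINA10: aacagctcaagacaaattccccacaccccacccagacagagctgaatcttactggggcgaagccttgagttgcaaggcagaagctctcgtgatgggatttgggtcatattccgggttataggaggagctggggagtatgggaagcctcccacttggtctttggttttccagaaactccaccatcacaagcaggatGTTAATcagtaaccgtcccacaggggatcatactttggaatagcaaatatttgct
SERPINA1: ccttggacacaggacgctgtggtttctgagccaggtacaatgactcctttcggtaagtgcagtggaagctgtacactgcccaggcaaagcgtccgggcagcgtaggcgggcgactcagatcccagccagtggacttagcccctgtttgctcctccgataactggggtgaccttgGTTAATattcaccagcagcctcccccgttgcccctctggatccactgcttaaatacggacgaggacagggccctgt
SERPINA6: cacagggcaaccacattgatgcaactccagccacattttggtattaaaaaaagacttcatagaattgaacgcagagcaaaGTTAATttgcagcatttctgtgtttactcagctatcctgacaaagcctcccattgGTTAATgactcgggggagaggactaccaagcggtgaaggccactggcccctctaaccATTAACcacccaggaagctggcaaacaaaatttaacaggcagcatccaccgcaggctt
SERPINA3: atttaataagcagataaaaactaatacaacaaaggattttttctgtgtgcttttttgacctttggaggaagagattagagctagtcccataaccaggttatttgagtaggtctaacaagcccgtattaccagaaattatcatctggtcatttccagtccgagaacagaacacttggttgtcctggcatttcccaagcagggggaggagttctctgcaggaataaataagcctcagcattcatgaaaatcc
The letters ended 50 bases before the start in SERPINA10 and 71 bases before it in SERPINA1. SERPINA6 had it in 3 places.

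In HEP3B most serpins had somewhat lower values after DAAD-2 than under DMSO, and none passed the test. By gene, 25 of 30 had a negative log2 fold change, against 10158 of all 19775 genes. Negative values were rarer among the genes with a mean of 6 or more in at least 1 group, at 2618 of 9047. They were thus more frequent among dimmer genes, and the share over all genes is too low a background for dim serpins. The median over the 30 serpins was -0.19, against -0.01 over all genes and 0.12 over the genes with a mean of 6 or more. Of the 25, 14 were among the 16 genes not described singly, which lay at low levels. The HEP3B array medians were 3.71 to 3.74 after DAAD-2 and 3.77 to 3.79 under DMSO. With centred arrays the log2 fold change was -0.30 instead of -0.36 for SERPINA1 and -0.12 instead of -0.18 for SERPINB1. After quantile normalization it was -0.35 for SERPINA1 and -0.33 for SERPINB1, so the size of the changes depended on the adjustment. Of the 48 probe sets 0 were called by limma, as were 0% of all probe sets. At an unadjusted p under 0.05, 12 serpin probe sets were lower and 1 was higher, 13 in all, against 5.47%, 9.53% and 15% of all probe sets. The DAAD-2 arrays were all below the DMSO arrays in 16 of the 48 and all above them in 1, against 9.99% and 11% of all probe sets. The members share their arrays and several share a gene, so they are not independent of each other.

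Among the inhibitors of blood proteases in HEP3B, the values on every array were as follows. SERPINA1 was at 12.85, 12.92 and 12.73 after DAAD-2, against 13.21, 13.23 and 13.13 under DMSO (log2 fold change -0.36, SE 0.09, limma adjusted p = 0.144). Another probe set of SERPINA1 had a log2 fold change of -0.45 (limma adjusted p = 0.133), and both sets had every DAAD-2 array below every DMSO array. SERPINA5 was at 10.35, 10.48 and 10.60 after DAAD-2, against 10.89, 11.09 and 10.88 under DMSO. With a log2 fold change of -0.48 (SE 0.11) its adjusted p from limma, 0.108, was the lowest in the family for this comparison. With a trended and robust variance model in limma SERPINA5 passed (adjusted p = 0.0401), and so did both of these SERPINA1 probe sets (0.0320 and 0.0394). SERPIND1 was at 8.59, 9.14 and 8.95 after DAAD-2, against 9.65, 9.33 and 9.41 under DMSO (log2 fold change -0.57, SE 0.15, limma adjusted p = 0.149). SERPING1 was at 5.47, 5.80 and 5.75 after DAAD-2, against 6.27, 6.10 and 6.10 under DMSO (log2 fold change -0.48, SE 0.12, limma adjusted p = 0.121). The groups did not overlap in either gene, and DAAD-2 replicate 1 was the lowest array in both. SERPINA10 was at 5.58, 5.87 and 6.07 after DAAD-2, against 6.55, 6.47 and 6.15 under DMSO (log2 fold change -0.55, SE 0.15, limma adjusted p = 0.158). SERPINA3 was at 5.38, 5.35 and 5.48 after DAAD-2, against 6.01, 6.17 and 5.65 under DMSO (log2 fold change -0.54, SE 0.14, limma adjusted p = 0.137). Neither of these genes had overlapping groups, although in both DMSO replicate 3 lay close to the DAAD-2 arrays. SERPING1 and SERPINA10 reached a mean of 6 in this DMSO group alone, at 6.16 and 6.39. Selection by that mean favours lower values after DAAD-2, so the lack of overlap in these genes is no separate support. SERPINF2 was at 7.01, 7.27 and 7.23 after DAAD-2, against 7.54, 7.77 and 7.29 under DMSO (log2 fold change -0.36, SE 0.14, limma adjusted p = 0.276), again without overlap. SERPINA4 had the most negative log2 fold change of the family, -0.64 (limma adjusted p = 0.142), at group means of 4.87 after DAAD-2 and 5.51 under DMSO.

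The other serpins described singly in HEP3B had log2 fold changes nearer to 0 or above it. SERPINA6 was at 9.18, 8.82 and 9.09 after DAAD-2, against 9.40, 9.42 and 9.0 under DMSO (log2 fold change -0.24, SE 0.15, limma adjusted p = 0.483). SERPINF1 was at 11.58, 11.61 and 11.55 after DAAD-2, against 11.81, 11.80 and 11.46 under DMSO (log2 fold change -0.11, SE 0.12, limma adjusted p = 0.694). In both genes the groups overlapped. SERPINB1 was at 8.65, 8.71 and 8.62 after DAAD-2, against 8.84, 8.92 and 8.76 under DMSO (log2 fold change -0.18, SE 0.09, limma adjusted p = 0.407), without overlap. SERPINB9 was at 6.82, 6.97 and 6.79 after DAAD-2, against 6.67, 6.47 and 5.93 under DMSO (log2 fold change 0.50, SE 0.18, limma adjusted p = 0.237). It was the only member probe set with every DAAD-2 array above every DMSO array, but its log2 fold change was 0.29 without DMSO replicate 3, and its 2 dim probe sets had log2 fold changes of -0.01 and -0.13. SERPINH1 was at 7.75, 8.51 and 7.99 after DAAD-2, against 7.13, 7.98 and 7.68 under DMSO (log2 fold change 0.49, SE 0.24, limma adjusted p = 0.392), and the groups overlapped. Its log2 fold change was 0.27 without DAAD-2 replicate 2 and 0.25 without DMSO replicate 1. SERPINI1 was at 8.17, 7.71 and 7.97 after DAAD-2, against 7.66, 7.73 and 7.95 under DMSO (log2 fold change 0.17, SE 0.14, limma adjusted p = 0.615), also with overlap. SERPINE2, at 3.89, 3.64 and 3.57 after DAAD-2 and 3.84, 3.73 and 3.56 under DMSO, was near the array medians throughout, and its log2 fold change of -0.01 (SE 0.12) was 0.04 with centred arrays and 0.05 after quantile normalization.

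**Figure D3:**
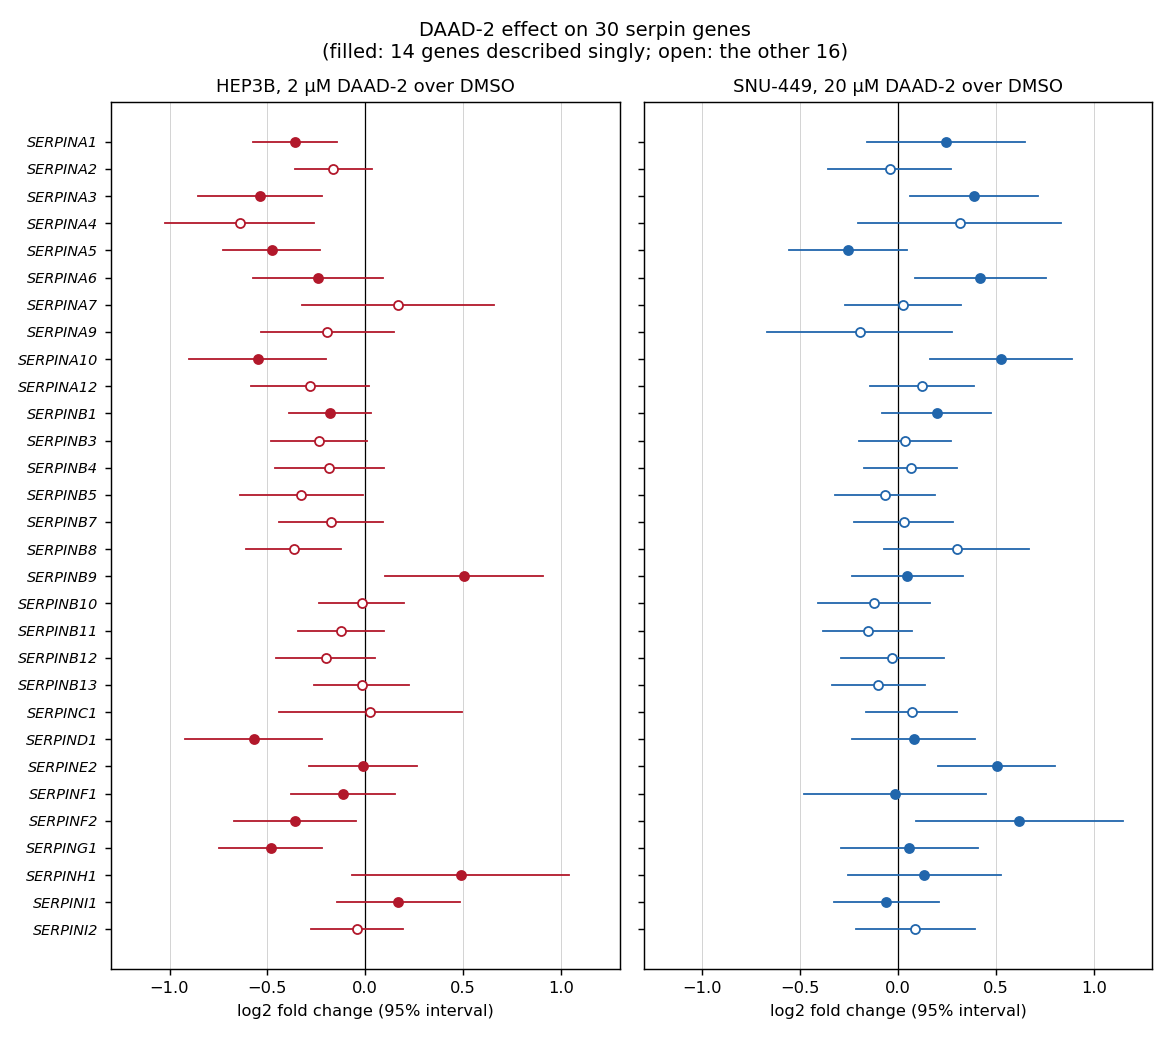
Log2 fold change of DAAD-2 over DMSO (horizontal axis, with the 95% interval) for the 30 serpin genes in HEP3B at 2 µM (left) and SNU-449 at 20 µM (right). Filled points are the 14 genes described singly, open points the other 16. In HEP3B 25 of the 30 points lie below 0, in SNU-449 10.

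In SNU-449 the serpins were near or slightly above their controls after DAAD-2, and again none passed the test. By gene, 20 of 30 had a positive log2 fold change, against 10030 of all 19775 genes. The median was 0.06, against 0.00 over all genes. Of the 48 probe sets 0 were called by limma, against 1.46% of all probe sets (1.04% higher and 0.417% lower). At an unadjusted p under 0.05, 5 serpin probe sets were higher and 1 lower, 6 in all, against 6.0%, 5.80% and 11.8% of all probe sets. All DAAD-2 arrays were above the DMSO arrays in 4 of the 48 and below them in 2, against 8.34% and 7.76%.

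SERPINE2 had the lowest adjusted p of the family in SNU-449. It was at 12.71, 12.78 and 12.40 after DAAD-2, against 12.23, 12.04 and 12.11 under DMSO, with no overlap (log2 fold change 0.50, SE 0.13, limma adjusted p = 0.124). With all 12 arrays in 1 fit it passed (limma adjusted p = 0.0482), and with a trended and robust variance model as well (0.0249). SERPINF2 was at 5.41, 4.46 and 4.91 after DAAD-2, against 4.13, 4.19 and 4.61 under DMSO (log2 fold change 0.62, SE 0.23, limma adjusted p = 0.320). Its groups overlapped through DAAD-2 replicate 2, the array with the high GAPDH ratio, and DMSO replicate 3. Without DAAD-2 replicate 1 its log2 fold change was 0.38, and without replicate 2 it was 0.85. SERPINA10 was at 4.65, 4.15 and 4.42 after DAAD-2, against 3.85, 4.10 and 3.69 under DMSO (log2 fold change 0.53, SE 0.16, limma adjusted p = 0.193). SERPINA6 was at 5.22, 5.63 and 5.35 after DAAD-2, against 5.08, 4.76 and 5.10 under DMSO (log2 fold change 0.42, SE 0.15, limma adjusted p = 0.277). SERPINA3 was at 6.04, 5.67 and 5.61 after DAAD-2, against 5.53, 5.26 and 5.37 under DMSO (log2 fold change 0.39, SE 0.14, limma adjusted p = 0.315), and the log2 fold change was 0.25 without DAAD-2 replicate 1. In these 3 genes the groups did not overlap, and the gap between them was smallest in SERPINA10, where DAAD-2 replicate 2 and DMSO replicate 2 lay next to each other.

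The other 9 serpins described singly had overlapping groups in SNU-449. SERPINA1 was at 4.29, 4.94 and 4.73 after DAAD-2, against 4.59, 4.41 and 4.23 under DMSO (log2 fold change 0.25, SE 0.18), with 0.43 without DAAD-2 replicate 1 and 0.10 without DAAD-2 replicate 2. SERPINA5 was at 4.56, 4.31 and 4.74 after DAAD-2, against 4.86, 4.82 and 4.70 under DMSO (log2 fold change -0.26, SE 0.13). SERPINB1 was at 8.38, 8.47 and 8.27 after DAAD-2, against 8.30, 8.23 and 7.99 under DMSO (log2 fold change 0.20, SE 0.12). Of these, SERPINB1 is the gene that SNU-449 carried well above its array medians. SERPINH1 was at 5.70, 5.27 and 5.41 after DAAD-2, against 5.14, 5.67 and 5.18 under DMSO (log2 fold change 0.14, SE 0.17). SERPINF1 was at 5.64, 5.28 and 4.78 after DAAD-2, against 5.43, 5.13 and 5.18 under DMSO (log2 fold change -0.01, SE 0.20). SERPING1, SERPIND1, SERPINB9 and SERPINI1 lay between 2.92 and 4.26 on the SNU-449 arrays, with log2 fold changes between -0.06 and 0.08. The adjusted p from limma of these 9 genes lay between 0.526 and 0.990.

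The responses of the lines were set against each other in a fit over all 12 arrays, as the difference of the log2 fold changes, HEP3B minus SNU-449. Of the 48 serpin probe sets 2 were called, SERPINA10 and SERPINA3, both lower in HEP3B relative to SNU-449, against 0.797% of all probe sets called lower, 1.21% called higher and 2.01% in either direction. At an unadjusted p under 0.05, 13 serpin probe sets were lower and 1 higher, 14 in all, against 5.97%, 8.05% and 14% of all probe sets. By gene the median difference was -0.24 over the 30 serpins and -0.02 over all genes. The differences use the same arrays as the comparisons within each line and are not separate support for them.

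SERPINA10 had a difference of -1.08 (SE 0.24, 95% interval -1.59 to -0.57, limma adjusted p = 0.0354), from a log2 fold change of -0.55 in HEP3B and 0.53 in SNU-449. The array values above place all 3 DAAD-2 arrays below all 3 DMSO arrays in HEP3B, and all 3 above them in SNU-449. SERPINA3 had a difference of -0.93 (SE 0.21, 95% interval -1.38 to -0.48, limma adjusted p = 0.0399), from -0.54 in HEP3B and 0.39 in SNU-449. Its HEP3B arrays were likewise all lower after DAAD-2 and its SNU-449 arrays all higher, the nearest of these at 5.61 after DAAD-2 and 5.53 under DMSO. With the replicate number as a block neither passed, at an adjusted p from limma of 0.0673 for SERPINA10 and 0.0505 for SERPINA3. Both calls also depended on single arrays. SERPINA10 was not called in limma without replicates 1 or 2 of HEP3B with DAAD-2 (adjusted p 0.0940 and 0.0844) or with DMSO (0.0909 and 0.0819), nor without replicates 1 or 3 of SNU-449 with DAAD-2 (0.0935 and 0.0651) or with DMSO (0.0606 and 0.102). SERPINA3 was not called in limma without replicates 1, 2 or 3 of HEP3B with DAAD-2 (adjusted p 0.0984, 0.106 and 0.0584), without replicates 1 or 2 of HEP3B with DMSO (0.0958 and 0.0911), without replicate 1 of SNU-449 with DAAD-2 (0.0951) or without replicates 2 or 3 of SNU-449 with DMSO (0.103 and 0.102). Each gene kept its call without each of 4 other arrays.

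No other serpin passed. SERPINF2 had a difference of -0.98 (SE 0.30, limma adjusted p = 0.125), which was -1.21 (limma adjusted p = 0.0223) without DAAD-2 replicate 2 of SNU-449, the array with the high GAPDH ratio. Without the same array a SERPINA1 probe set was called as well, at -0.76 (limma adjusted p = 0.0263), against -0.66 (0.0783) with all arrays. After quantile normalization of all arrays it was also called, at -0.73 (limma adjusted p = 0.0332). Of the genes not described singly, SERPINA4 had a difference of -0.96 (limma adjusted p = 0.158) and SERPINB8 one of -0.66 (limma adjusted p = 0.126) by its brighter probe set. SERPINA6 had a difference of -0.66, SERPIND1 of -0.65, SERPINA1 of -0.60 by its brighter probe set, SERPING1 of -0.54, SERPINE2 of -0.52 and SERPINB1 of -0.38, with adjusted p from limma between 0.165 and 0.255. SERPINA5 (-0.22) and SERPINF1 (-0.10), both bright in HEP3B, had intervals that reach across 0, from -0.59 to 0.15 and from -0.65 to 0.45. On the positive side stood SERPINB9 (0.46), SERPINH1 (0.35) and SERPINI1 (0.23), with adjusted p from limma of 0.406 to 0.692.

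**Figure D4:**
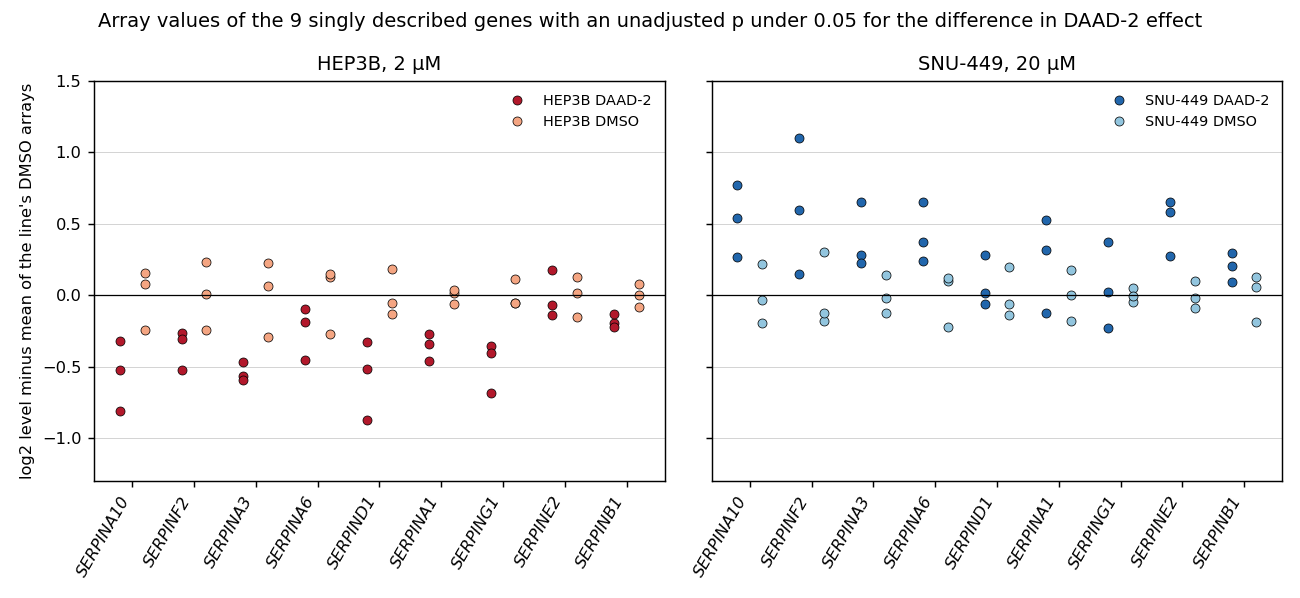
Log2 level of each array minus the mean of the DMSO arrays of its line (vertical axis) for the 9 singly described serpin genes with an unadjusted p under 0.05 for the difference between the responses, HEP3B at 2 µM on the left and SNU-449 at 20 µM on the right. DAAD-2 arrays are drawn left of the DMSO arrays. The DAAD-2 arrays of SERPINA10 and SERPINA3 lie below the DMSO arrays in HEP3B and above them in SNU-449.

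Liver markers outside the family had differences of the same signs. The mean level of the 9 hepatocyte markers was between 11.07 and 11.17 on the DAAD-2 arrays of HEP3B, against 11.26 to 11.32 on its DMSO arrays, and between 5.35 and 5.55 on the DAAD-2 arrays of SNU-449, against 4.94 to 5.09 on its DMSO arrays. The difference of the responses was negative in 9 of the 9, against 10533 of all 19775 genes, with a median of -0.57. Of the 9, 2 were called lower, FGB (-1.44, limma adjusted p = 0.0203) and AMBP (-1.21, limma adjusted p = 0.0119), against 1.46% of all genes. These 2 also rose most in SNU-449, with log2 fold changes of 1.56 and 0.99, while TTR was at 5.11 after DAAD-2 and 5.17 under DMSO. FGB is the marker that was higher in SNU-449 than in HEP3B under DMSO. Whether the serpins followed the same change as these markers was not tested.

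The other 16 serpin genes, with 25 probe sets, had levels between 2.56 and 5.76, and 18 of the probe sets were below the array median on all 12 arrays. They were 5 genes of clade A, 9 of clade B, SERPINC1 and SERPINI2. The clade B genes of chromosome 18 belong mostly to squamous epithelium, among them SERPINB3 and SERPINB4, the squamous cell carcinoma antigens, and SERPINB5, maspin. SERPINB3 and SERPINB4 are near-identical copies whose probes can share signal. SERPINB8, at 5.24 in HEP3B and 5.21 in SNU-449 under DMSO, was above the array median on all 12 arrays. A second, dim probe set of SERPINB8 was called lower in HEP3B (log2 fold change -0.35, limma adjusted p = 0.0223), while the brighter had one of 0.03. Among the 25 probe sets the log2 fold changes after DAAD-2 lay between -0.64 and 0.17 in HEP3B and between -0.30 and 0.32 in SNU-449.

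The proteases that serpins inhibit were distributed between the lines in both directions. Of 32 target proteases measured, 16 were higher and 6 lower in HEP3B under DMSO, against 21.4% and 19.4% of all genes. HPN, hepsin, a membrane protease of hepatocytes, had a log2 fold change of 5.80 and F7, coagulation factor VII, one of 5.77. PRSS23, a secreted serine protease, was lower in HEP3B, with a log2 fold change of -7.05, and PLAU, urokinase, with one of -5.56. SERPINE2 and PLAU, a protease it inhibits, were therefore both lower in HEP3B than in SNU-449. After DAAD-2, 3 of the 32 were called higher in SNU-449 and 0 lower, against 1.82% and 0.561% of all genes. The 3 were C1S, the complement protease blocked by SERPING1 (log2 fold change 1.27, SE 0.22, limma adjusted p = 0.0307), CTSL, cathepsin L (0.93, SE 0.15, limma adjusted p = 0.0242), and PLAU (0.83, SE 0.11, limma adjusted p = 0.0147). The median over the list was 0.00 in SNU-449 and -0.05 in HEP3B, where 0 were called by limma and 5 were higher and 5 lower at an unadjusted p under 0.05, against 13.6% and 6.63% of all genes. In the difference of the responses, called higher for 1.82% and lower for 1.46% of all genes, PRSS23 was higher in HEP3B (1.62, limma adjusted p = 0.0286) and CTSL lower (-0.86, limma adjusted p = 0.0302).

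Of 12 genes of plasminogen activation and of the clearance of serpin complexes, 4 were higher and 5 lower in HEP3B under DMSO (21.4% and 19.4% of all genes), with log2 fold changes for S100A10, part of a plasminogen receptor, of -3.14, for VLDLR, the receptor of very low density lipoprotein, of -2.07 and for the sorting receptor SORL1 of 2.11. PLAU was the 1 gene of the 12 called after DAAD-2 in SNU-449, where 1.82% of all genes were called higher and 0.561% lower. LRP1, the receptor that takes up complexes of serpins with their proteases, was lower in HEP3B relative to SNU-449 in the difference of the responses (-0.97, SE 0.21, limma adjusted p = 0.0321). It was the 1 of 12 called there, against 1.46% of all genes called lower and 1.82% higher. Of 33 protease inhibitors outside the serpin family, 17 were higher and 4 lower in HEP3B under DMSO (21.4% and 19.4% of all genes), led by AHSG, fetuin-A (log2 fold change 10.24), A2M, alpha-2-macroglobulin (8.71), and ITIH2, an inter-alpha-trypsin inhibitor chain (7.92). AMBP, the precursor of bikunin, was the 1 of 33 called after DAAD-2 in SNU-449 (log2 fold change 0.99, SE 0.17, limma adjusted p = 0.0302). Over all genes 1.82% were called higher there. In the difference of the responses 2 of the 33 were called, both lower in HEP3B relative to SNU-449, against 1.46% of all genes. They were AMBP (-1.21, limma adjusted p = 0.0119) and TFPI, the tissue factor pathway inhibitor (-0.83, limma adjusted p = 0.0370). In HEP3B 0 genes of either list were called by limma after DAAD-2, with 3 of 12 and 7 of 33 at an unadjusted p under 0.05, against 20.2% of all genes.

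SERPINH1 works on collagens, and these were examined with the enzymes that modify them. Of 21 genes 6 were higher and 9 lower in HEP3B under DMSO (21.4% and 19.4% of all genes), with log2 fold changes of -8.60 for COL6A3 and -7.19 for COL1A2, while SERPINH1 was higher there. After DAAD-2, COL1A1 (log2 fold change 1.21, SE 0.19, limma adjusted p = 0.0232) and LOX, the collagen cross-linking enzyme (0.94, SE 0.18, limma adjusted p = 0.0434), rose in SNU-449. These were the 2 of 21 called higher, against 1.82% of all genes. None of the 21 was called lower there by limma, against 0.561% of all genes. At an unadjusted p under 0.05, 2 were lower, against 1420 of all 19775 genes. In HEP3B 0 of 21 were called by limma, with 5 at an unadjusted p under 0.05, against 20.2% of all genes. The difference of the responses was called for COL1A1 (-1.26, limma adjusted p = 0.0237) and COL5A2 (0.97, limma adjusted p = 0.0247). That is 1 of 21 lower and 1 higher, against 1.46% and 1.82% of all genes.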

How the data were processed

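The log2 values used here are those the authors deposited for 12 arrays. They were made with RMA, per the submitters' processing notes, which corrects the background, quantile-normalizes and summarises each probe set; its version is not stated there, and normalization in BRB Array Tools is stated in the study's methods. The file has no detection calls, so a low level cannot be told from none, and the number of arrays limits the precision. No column of values was left unused (0).

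After 62 of 54675 probe sets had been left out as controls, 54613 were fitted without a filter in limma 3.58.1 (R 4.3.3), with two-sided tests and Benjamini-Hochberg adjustment over all of them. The comparison of the lines used their DMSO arrays, and the difference of the responses all 12 arrays with 4 group means. With 3 arrays on each side the smallest two-sided p of an exact permutation test is 0.10. Symbols came from the platform annotation: 41091 probe sets had 1, 1801 several and 11721 none; 1 serpin probe set with several symbols was left out. Of 30 serpin genes, 9 had more than 1 probe set.

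Serpin genes were described singly if a group mean reached 6 or a DAAD-2 comparison or the difference of the responses called them. From the other lists up to 4 called genes per comparison, those with the largest change, were named. The members and lists were chosen with earlier results of these data known. Arrays with the same replicate number did not deviate together within a line (correlations -0.27 to 0.09), so the fits were not paired. Alternatives were a single fit of 12 arrays, the replicate number as a block, dropping dim probe sets, centring, quantile normalization, a trended and robust variance model, a rule of fold over 1.5 with unadjusted p under 0.05, 1 probe set per gene and leaving out each array. The fits were tested on simulated data. Promoter windows came from RefSeq (GRCh38.p14). Python 3.11.15, pandas 2.3.3, numpy 2.4.6 and matplotlib 3.10.9 were used for tables and figures.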

Additional observations from a re-analysis of the deposited data

Results flagged for a closer look

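The test of the difference between the lines singled out 2 serpin genes. SERPINA10 differed by -1.08 on the log2 scale (limma adjusted p = 0.0354), with a log2 fold change of -0.55 in HEP3B and 0.53 in SNU-449, and all 3 DAAD-2 arrays beyond the 3 DMSO arrays in each line, in opposite directions. SERPINA3 differed by -0.93 (limma adjusted p = 0.0399), with -0.54 in HEP3B and 0.39 in SNU-449 and the same separation of arrays. The doses were 2 µM in HEP3B and 20 µM in SNU-449, so line and dose cannot be told apart. Neither gene was called within a line.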

How the results depend on the processing

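No serpin probe set was called lower after DAAD-2 in HEP3B, but 3 were with a trended and robust variance model (2 of SERPINA1 and 1 of SERPINA5) and 1 at a fold over 1.5 with unadjusted p under 0.05. In SNU-449 1 was called higher with all 12 arrays in 1 fit, 1 with the trended model (SERPINE2 in both) and 1 at a fold over 1.5. Of the 2 probe sets lower in HEP3B than in SNU-449 under DMSO, 1 was called with the filter on dim probe sets, with 1 probe set per gene and at a fold over 1.5, and 1 to 2 without single arrays. The 2 calls of the difference of the responses became 9 at a fold over 1.5, and 0 to 4 without single arrays, with 4 without DAAD-2 replicate 2 of SNU-449. With the replicate block they became 0 (limma adjusted p = 0.0673 for SERPINA10 and 0.0505 for SERPINA3); the arrays share only a number, and the block changed no other count by over 1.5 times. SERPINA10 and SERPINA3 kept their calls with the dim filter, centring, quantile normalization, the trended model and 1 probe set per gene. The sign changed only in small differences that were not called. SERPINE2 in HEP3B was 0.0438 with centring, 0.0461 after quantile normalization and -0.11 to 0.0546 without single arrays. In SNU-449 without single arrays, SERPING1 was -0.0995 to 0.20, SERPINI1 -0.16 to 0.0032, SERPINB9 -0.0454 to 0.13, SERPIND1 -0.0226 to 0.18 and SERPINF1 -0.22 to 0.21. The difference of the responses of SERPINF1 was -0.33 to 0.11. With the mean of all probe sets of a gene, dim ones included, the differences between the lines under DMSO were called but smaller, at 4.71 for SERPINA1, -4.25 for SERPINE2, 1.20 for SERPINB9 and 0.40 for SERPINB1. The causes were not tested. Of the other values of single genes, 775 kept direction and call, 22 lost a call and 5 gained one. With 3 arrays a group and no detection calls, levels near the array medians bound neither presence nor fold.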
